A study of Mus musculus with 16 samples.

Results

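The genes described here are 6 that are used as markers of the atria, the upper chambers of the heart: Myl4, Myl7, Sln, Bmp10, Mybphl and Nr2f2. They are 6 of the 19938 genes that carry a symbol of their own in the table, and each was to be read from its probe set of highest mean. Each gene has a single probe set, so that choice was never needed: 10381798 for Myl4, 10384044 for Myl7, 10585390 for Sln, 10539802 for Bmp10, 10495306 for Mybphl and 10564527 for Nr2f2. The genes were chosen from earlier results of the same arrays, in which the log2 values of Myl7 were high on some of them. Their heights on single arrays are therefore a description and carry no test. No array is labelled as atrial, so the data cannot place a gene in a chamber.

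The study measured RNA of hearts from 16 male C57BL/6 mice on Affymetrix arrays, 1 array each, in 4 groups of 4. Mice had the genotype called control or the zbtb17 cKO, a conditional knockout, and had either transverse aortic constriction (TAC), a narrowing of the aorta that makes the heart pump against a higher pressure, or a sham operation. They were 8 to 10 weeks old before surgery and hearts were taken 4 weeks after it. The labels name the tissue as heart and do not say which chambers were taken, what drives the deletion, which exons it removes or what alleles the controls carry. Zbtb17 itself was at 6.36 ± 0.13 after sham and 6.45 ± 0.11 after TAC in control hearts, and at 6.52 ± 0.07 and 6.50 ± 0.02 in the hearts labelled cKO (log2 value, SD, n = 4 each). It was thus no lower in the latter, and whether its probes lie in the deleted part was not given in the sources used here, so every direction between genotypes below is one between arrays labelled cKO and control.

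The arrays fit the labelled tissue. All 9 cardiomyocyte markers passed the filter on low values, and their mean log2 value lay between 12.84 and 13.15 on every array. The medians of the arrays lay between 4.85 and 4.97. A value is the authors' log2 signal of a probe set, and 1 unit on this scale is a doubling. Probe sets bind with different strength, so levels are compared between arrays for 1 gene and never between genes.

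Atrial and ventricular cardiomyocytes build their contractile filaments from different versions of the same proteins. Myl4 is the atrial essential light chain of myosin and Myl7 the atrial regulatory light chain, where ventricular cells use Myl3 and Myl2. Mybphl is a small relative of the myosin binding proteins and is found in atrial and conduction cells. Sln encodes sarcolipin, a short membrane peptide that restrains the calcium pump of the sarcoplasmic reticulum and that in mice is an atrial counterpart of phospholamban. Bmp10 is a secreted ligand of the BMP family that, after birth, comes mainly from the right atrium. Nr2f2, also called COUP-TFII, is a nuclear receptor that keeps atrial identity and is also made by venous endothelium and other non-muscle cells.

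The promoters of these genes are shown because most of these genes were highest on the same arrays. The RefSeq promoter table used here, for GRCm38.p6, matched 5 of them, and Sln is named only. Each line gives the 250 bases before the start, 5′ to 3′ on the gene's strand, with matches to a searched motif in capitals. The windows are chr11:5898783-5899032 on the minus strand for Myl7, chr11:104550413-104550662 on the plus strand for Myl4, chr3:108364661-108364910 on the plus strand for Mybphl and chr6:87428744-87428993 on the plus strand for Bmp10.
Myl7: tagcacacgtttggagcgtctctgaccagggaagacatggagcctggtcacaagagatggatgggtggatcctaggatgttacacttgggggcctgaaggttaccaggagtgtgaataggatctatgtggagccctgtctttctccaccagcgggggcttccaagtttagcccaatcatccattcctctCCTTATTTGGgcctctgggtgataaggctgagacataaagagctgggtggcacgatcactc
Myl4: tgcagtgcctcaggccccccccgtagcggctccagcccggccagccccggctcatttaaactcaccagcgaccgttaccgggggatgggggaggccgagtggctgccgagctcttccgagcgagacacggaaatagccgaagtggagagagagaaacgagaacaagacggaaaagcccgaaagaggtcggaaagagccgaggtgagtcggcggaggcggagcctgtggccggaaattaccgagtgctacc
Mybphl: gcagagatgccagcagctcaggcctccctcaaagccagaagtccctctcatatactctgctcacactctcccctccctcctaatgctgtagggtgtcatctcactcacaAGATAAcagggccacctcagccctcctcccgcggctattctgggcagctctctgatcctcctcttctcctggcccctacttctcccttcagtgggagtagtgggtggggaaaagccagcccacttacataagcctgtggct
Bmp10: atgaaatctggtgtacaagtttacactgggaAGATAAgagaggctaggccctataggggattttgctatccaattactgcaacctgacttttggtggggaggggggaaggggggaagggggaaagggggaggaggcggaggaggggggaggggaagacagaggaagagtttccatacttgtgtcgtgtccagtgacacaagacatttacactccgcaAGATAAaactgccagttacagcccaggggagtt

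Letters were searched on both strands for 6 motifs. AGGTCA is a site of nuclear receptors such as Nr2f2, AGATAA a site of GATA factors and AGGTGT a T-box core. The others were TATAAA and the sites known as MEF2 and CArG, the latter bound by serum response factor. Other forms of the GATA site were not searched, so a window without AGATAA may still hold one. The Myl7 window held 1 CArG match, whose first base lies 61 bases before the start. Mybphl held 1 AGATAA, 141 bases before the start, and Bmp10 held 2, at 219 and 33 bases before it. The Myl4 window and that of Nr2f2 (chr7:70366747-70366996, minus strand) held none of the 6 motifs. Over all 32851 promoters of the same length, 1.47% held CArG, 9.99% AGATAA, 14% AGGTCA, 11.8% AGGTGT, 12.4% TATAAA and 2.92% MEF2. No motif was found in more than 2 of the 5 windows, and a match describes the letters of a window and not a bound factor.

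Of the light chains, Myl7 had log2 values of 4.30, 5.02, 8.62 and 4.92 in control sham replicates 1 to 4, of 6.07, 7.26, 4.54 and 4.39 in control TAC, of 4.86, 8.46, 4.63 and 5.20 in cKO sham and of 6.07, 8.83, 4.69 and 4.33 in cKO TAC. It was high on 6 arrays, those of control sham replicate 3, of control TAC replicates 1 and 2, of cKO sham replicate 2 and of replicates 1 and 2 of cKO TAC. Every group held 1 or 2 of these arrays, and the ranges of all 4 groups overlapped. Group means ran from 5.57 ± 1.36 in control TAC through 5.72 ± 1.96 in control sham and 5.79 ± 1.80 in cKO sham to 5.98 ± 2.04 in cKO TAC (SD, n = 4 each), and the SD within each group was larger than any gap between neighbouring means.

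Myl4 had log2 values of 6.90, 6.76, 11.18 and 7.31 in control sham, of 9.20, 10.30, 6.96 and 7.04 in control TAC, of 7.52, 11.09, 7.23 and 7.59 in cKO sham and of 9.17, 12.11, 7.50 and 6.91 in cKO TAC. Its 6 highest arrays were those of Myl7. The lowest of those 6 Myl4 values was 9.17 and the highest of the rest was 7.59. Group means ran from 8.04 ± 2.11 in control sham through 8.36 ± 1.83 in cKO sham and 8.38 ± 1.65 in control TAC to 8.92 ± 2.33 in cKO TAC (SD, n = 4 each), an order in which no neighbours differed by more than their SD.

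Sln, the calcium pump inhibitor, was at 4.14, 4.29, 4.96 and 4.24 in control sham, at 4.76, 4.40, 4.23 and 4.26 in control TAC, at 4.31, 5.03, 4.14 and 4.27 in cKO sham and at 4.62, 5.18, 4.25 and 4.21 in cKO TAC. The same 6 arrays were highest, from 4.40 to 5.18, and the other 10 reached 4.31. Its whole range over the arrays was 1.04, against 5.35 for Myl4 and 4.53 for Myl7. The group means, 4.41 ± 0.37, 4.41 ± 0.24, 4.44 ± 0.40 and 4.57 ± 0.45 in the order in which its values are given (SD, n = 4 each), sat close to the filter at 4.37.

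Mybphl was at 4.16, 4.14, 5.04 and 3.98 in control sham, at 4.48, 4.96, 4.09 and 4.36 in control TAC, at 4.13, 5.42, 4.24 and 4.33 in cKO sham and at 4.54, 6.83, 4.22 and 4.51 in cKO TAC. Of its 6 highest arrays, 5 were among the 6 highest of Myl7. The exception was cKO TAC replicate 4, at 4.51, which stood just above control TAC replicate 1, at 4.48. One array, cKO TAC replicate 2, stood at 6.83 where the next highest was at 5.42, and it also had the highest Myl4, Myl7 and Sln. Its group means, in the order in which the values are given, were 4.33 ± 0.48, 4.47 ± 0.36, 4.53 ± 0.60 and 5.03 ± 1.21 (SD, n = 4 each).

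Bmp10, the secreted ligand, did not follow the light chains. It was at 3.71, 3.81, 3.64 and 3.68 in control sham, at 3.66, 3.74, 3.60 and 3.44 in control TAC, at 3.75, 3.57, 3.75 and 3.76 in cKO sham and at 3.71, 3.79, 3.71 and 3.49 in cKO TAC. Only 2 of its 6 highest arrays were among those of Myl7, and its mean of 3.68 over the 16 arrays was under the filter. That mean also lay below the lower quartiles of the arrays, which were 3.73 to 3.85. Whether the probe set detects Bmp10 at all cannot be told from these values. Where Myl7 read 8.62 and 8.46, in control sham replicate 3 and cKO sham replicate 2, Bmp10 was the lowest of its group of 4. On cKO TAC replicate 2 and control TAC replicate 2, where Myl7 read 8.83 and 7.26, Bmp10 was instead the highest of its group.

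Nr2f2, the nuclear receptor, was at 6.31, 6.30, 6.51 and 6.24 in control sham, at 6.44, 6.47, 6.14 and 6.24 in control TAC, at 5.91, 6.31, 6.05 and 5.86 in cKO sham and at 6.39, 6.41, 6.24 and 5.96 in cKO TAC. Its whole range was 0.65. Its highest arrays were again those of Myl7, with control sham replicate 1 and cKO sham replicate 2 tied for the last place at 6.31. Group means were lowest in cKO sham, at 6.03 ± 0.20, followed by 6.25 ± 0.21 in cKO TAC, 6.32 ± 0.16 in control TAC and 6.34 ± 0.12 in control sham (SD, n = 4 each). The gap at the bottom of that order, between the cKO groups, was about as wide as their SD.

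**Figure D1:**
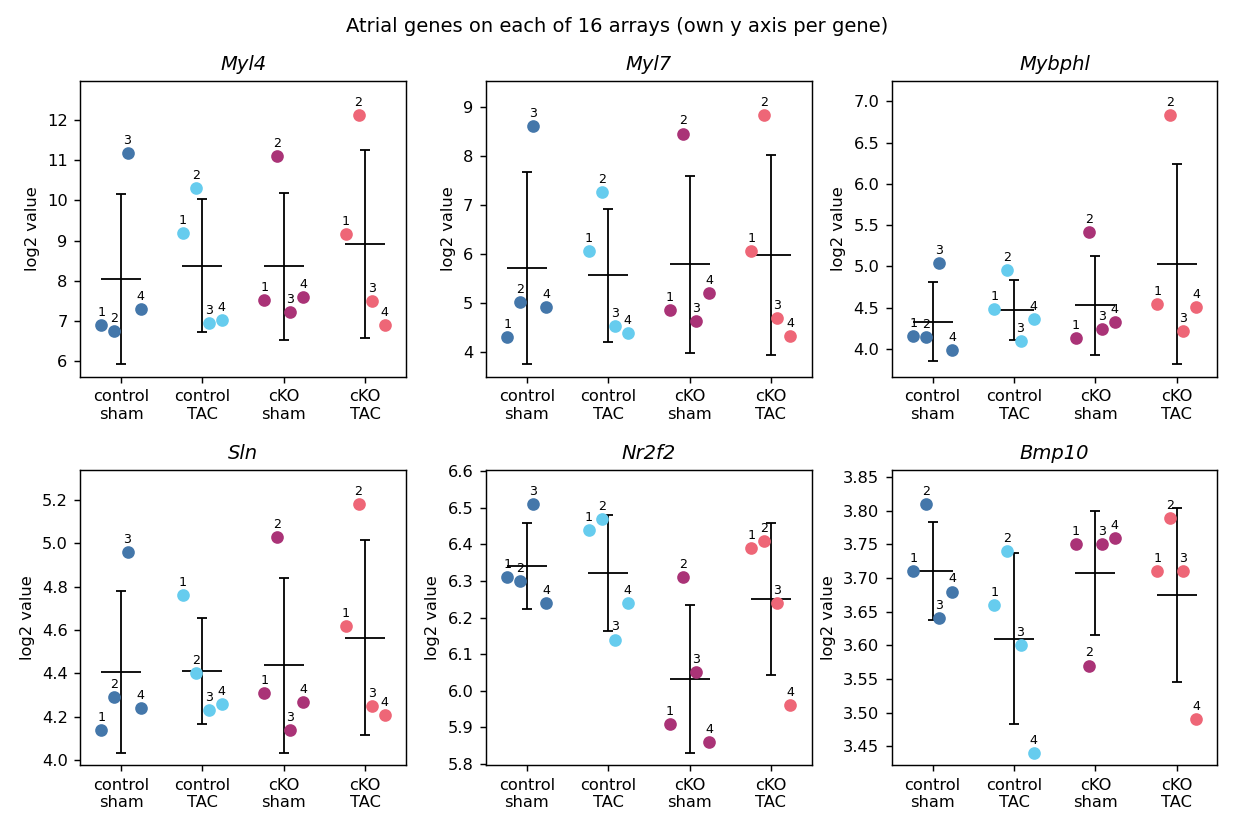
Log2 values of the 6 atrial genes, 1 panel a gene with its own vertical axis, on the 16 arrays. Each point is an array numbered by its replicate, and the black bar and whiskers are the mean and SD of the 4 arrays of a group. Myl4, Myl7, Sln and Mybphl have 1 or 2 raised arrays in each group, Bmp10 spans 3.44 to 3.81 with no such arrays, and Nr2f2 spans 5.86 to 6.51.

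Measured from each gene's own median over the 16 arrays, the raised arrays formed a series. On cKO TAC replicate 2, Myl4 was 4.60 above its median, Myl7 3.86, Mybphl 2.48, Sln 0.90, Nr2f2 0.14 and Bmp10 0.08. On control sham replicate 3, Myl4 was 3.67 above its median, Myl7 3.65, Mybphl 0.69, Sln 0.68 and Nr2f2 0.24, while Bmp10 was at -0.07. The values on cKO sham replicate 2 were close to these for the light chains, at 3.58 for Myl4 and 3.49 for Myl7, with Mybphl 1.07 above, Sln 0.75 above and Bmp10 at -0.14.

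Control TAC replicate 2 came next, with Myl4 2.79 and Myl7 2.29 above their medians, Mybphl 0.61 above and Sln 0.12 above. Control TAC replicate 1 and cKO TAC replicate 1 were the lowest of the 6 and nearly equal for the light chains, with Myl4 1.69 and 1.66 above its median and Myl7 1.10 above on both. Sln stood higher on control TAC replicate 1 (0.48) than on control TAC replicate 2 (0.12), so the genes did not keep one order over the arrays.

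**Figure D2:**
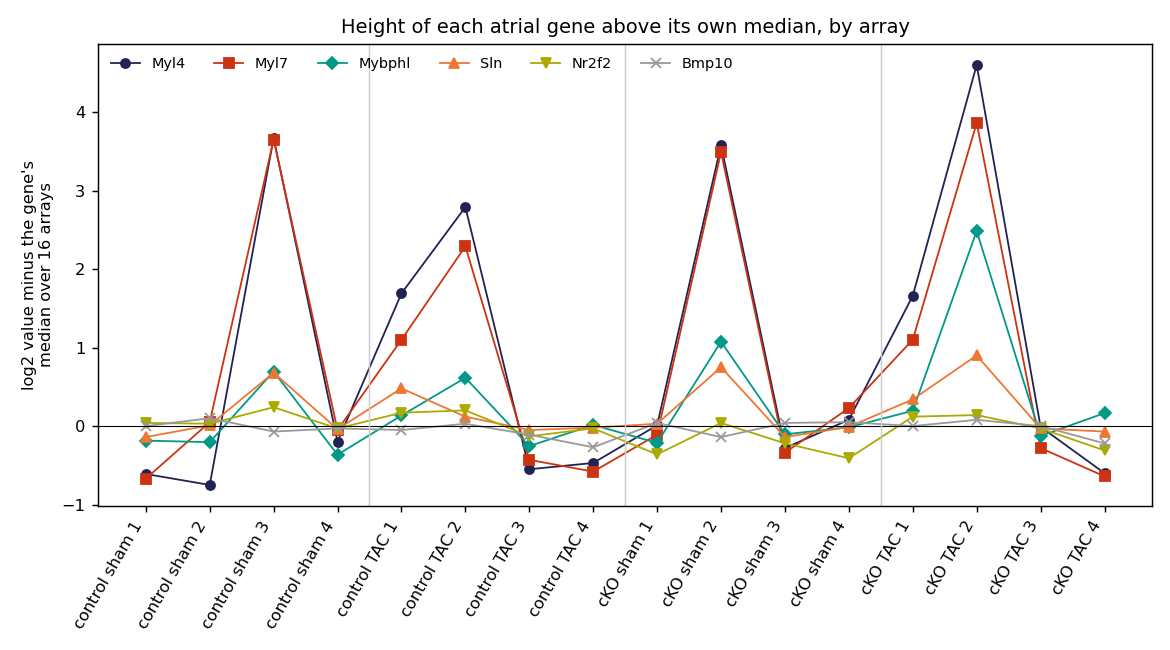
The difference of each log2 value from that gene's median over the 16 arrays (vertical axis), by array (horizontal axis, with grey lines between the 4 groups). The lines link arrays for reading only, since replicates have no order. Myl4 and Myl7 peak together on 6 arrays, up to 4.60 and 3.86 on cKO TAC replicate 2, and Bmp10 stays within 0.27 of its median.

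Within groups, Myl4 had a residual SD of 2.00 in the fit of the 4 group means and Myl7 one of 1.81, against a median of 0.155 over the 21333 probe sets that passed the filter. Mybphl had a residual SD of 0.74, Sln one of 0.375 and Nr2f2 one of 0.175. Sln and Mybphl are not ranked among these probe sets, since the raised arrays brought them past the filter. The ventricular light chains were among the steadiest, with 0.075 for Myl2 and 0.055 for Myl3.

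Rank correlations between the genes over the 16 arrays describe the same pattern, and they rest mostly on the 6 raised arrays. Spearman's rho was 0.91 between Myl7 and Sln, 0.88 between Myl4 and Myl7, 0.84 between Myl4 and Sln and 0.72 between Myl4 and Mybphl. Nr2f2 had 0.55 to 0.63 with these 4 genes. Bmp10 had -0.13 to 0.27 with the other 5.

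As the background for these shared arrays, of the 13670 genes that passed the filter, 30, or 0.219%, had the same 6 highest arrays as Myl7, ties included, and 456, or 3.34%, shared at least 5 of them. A set of 18 genes, 0.132%, had all 6 above every one of the other 10 arrays. Myl4, Myl7 and Sln were 3 of the 18. Myl7 is there by construction, since it set the 6 arrays, and Sln passed the filter only through them, its other 10 values being at 4.31 or less, so the place of these genes in the count is no support for the pattern. The other 15 were Dkk3, Fmod, Comp, Chad, Cytl1, Prelp, Htra4, Pde3b, Crispld1, Pdgfrl, Reck, Ldlrad4, Slc7a2, Lsm10 and Cilk1, named after their values were seen.

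As background on 5 of those genes, Fmod (fibromodulin) and Prelp are small proteoglycans that bind collagen, Chad (chondroadherin) and Comp are cartilage matrix proteins, and Dkk3 is a secreted relative of the Wnt inhibitors that is known as an atrial gene. Dkk3 was at 5.68 in control sham replicate 3, 5.0 and 6.04 in control TAC replicates 1 and 2, 6.29 in cKO sham replicate 2, and 5.47 and 7.36 in cKO TAC replicates 1 and 2, and its other values lay between 4.36 and 4.99. Fmod was at 6.60, 5.68, 6.53, 7.41, 6.17 and 7.56 on the same arrays in that order and between 4.68 and 5.46 on the others. Comp had its highest values there too, from 5.39 to 7.66, and Chad, from 5.23 to 7.39.

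**Figure D3:**
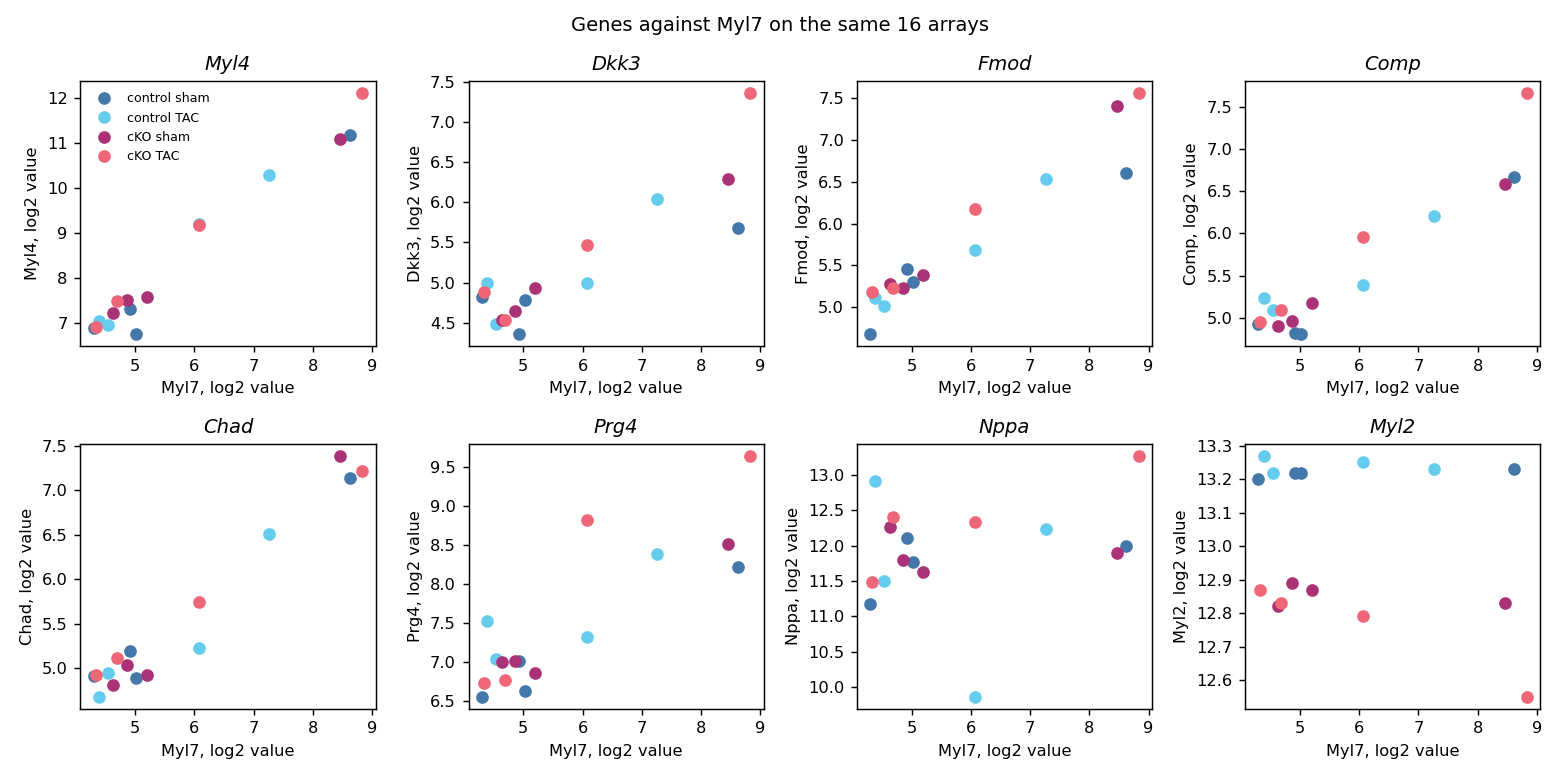
Log2 values of 8 genes (vertical axes, each with its own scale) against Myl7 (horizontal axes) on the 16 arrays, coloured by group. Myl4, Dkk3, Fmod, Comp and Chad have their 6 highest points where Myl7 is 6.07 or more, Prg4 has 5 of them there and Nppa 3. Myl2 is at 13.20 to 13.27 in control and 12.55 to 12.89 in cKO hearts.

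Lists of other genes were set beside the atrial ones, and 3 of them held several genes that were highest on the same arrays. The share over all genes that passed the filter was 3.34% for at least 5 shared arrays. The lists were chosen with earlier results of these data known, so their counts are a description and no test. All 4 measured markers of heart valve and cartilage that passed the filter, Comp, Fmod, Chad and Prg4, shared at least 5 of their 6 highest arrays with Myl7. So did 4 of 6 fibroblast markers (Pdgfra, Dpt, Dcn and Col1a1) and 3 of 7 smooth muscle markers (Myh11, Tagln and Cnn1). Of the other fibroblast markers, Lum shared 4 and Tcf21 3. Of the other smooth muscle markers, Acta2 and Mylk shared 3 each, and Smtn and Lmod1 2 each. Acta2 also had 3 of its 6 lowest arrays there. The part of these cells in the height of the atrial genes was not tested. The mean of the 7 valve and cartilage markers ran from 4.72 to 5.82 in control sham and 4.85 to 6.02 in cKO sham hearts, and from 4.86 to 5.71 and 4.83 to 6.36 after TAC. Of that list, Hapln1, Acan and Matn4 did not pass the filter.

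Fibroblast means ran from 8.19 to 8.73, 8.37 to 8.91, 8.47 to 8.92 and 8.53 to 9.40 in the same order of groups, and smooth muscle means from 7.02 to 7.44, 7.05 to 7.43, 6.98 to 7.25 and 7.09 to 7.66. Both lists were highest on cKO TAC replicate 2. Prg4, which encodes the lubricating protein lubricin, was at 9.65 on that array and between 6.55 and 8.82 on the rest. In bulk RNA, fewer cells of a type and less RNA in each cannot be told apart.

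Markers of the other cell types seldom shared at least 5 of Myl7's 6 highest arrays. Of all genes that passed the filter, 3.34% did, so lists this short would hold few or none. These counts therefore do not set the cell types apart from other genes. None of the 9 cardiomyocyte, 5 sinus node, 7 endothelial, 8 epicardial, 4 lung, 3 adipocyte, 4 skeletal muscle, 3 Schwann cell or 6 macrophage markers that passed the filter shared 5 of 6. The only marker of T cells and the only marker of red blood cells that passed also did not. Among 6 endocardial and venous markers, 1 did, Nfatc1. Of the 7 lung markers, Sftpc (3.32 to 3.75), Scgb1a1 (3.05 to 3.29) and Sftpd (3.68 to 4.07) did not pass the filter. The 4 that passed were Ager at 5.70 to 6.07, Sftpa1 at 4.50 to 5.25, Napsa at 4.31 to 4.87 and Sftpb at 4.11 to 4.76.

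The mean of the epicardial list was 5.29 in control sham replicate 3, against 5.46 to 5.85 on the other control sham arrays, and 5.16 in cKO sham replicate 2, against 5.69 to 5.79 on the other cKO sham arrays. It was 5.52, 5.36, 5.52 and 5.48 in control TAC replicates 1 to 4. In cKO TAC replicates 1 to 4 it was 5.0, 5.57, 5.73 and 5.38. So it was not low on all 6 arrays where Myl7 was high. Its part in the height of the atrial genes was not tested.

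**Figure D4:**
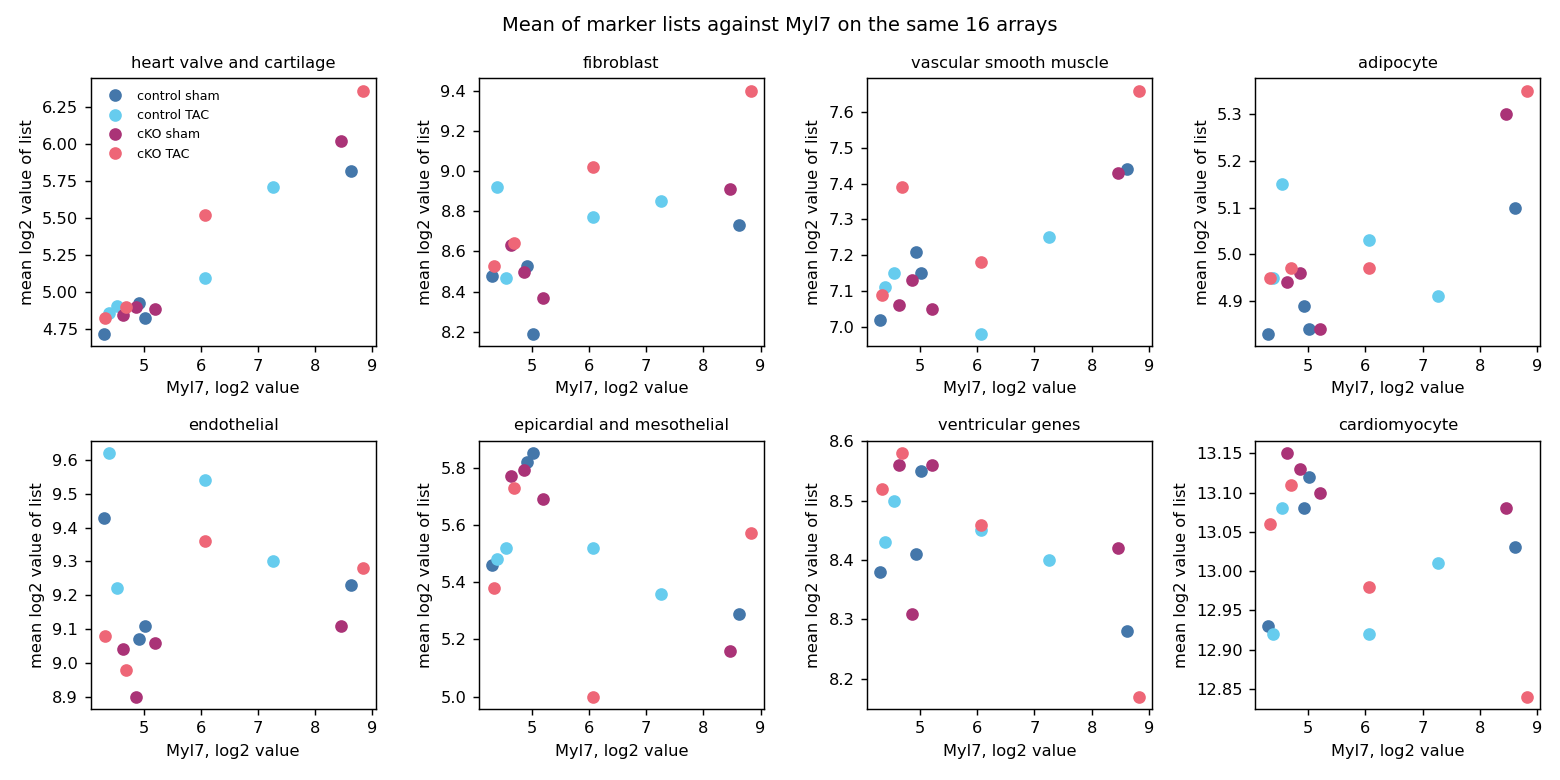
The mean log2 value of 8 marker lists (vertical axes, each with its own scale) against Myl7 (horizontal axes) on the 16 arrays, coloured by group. Valve and cartilage markers have their 6 highest means, 5.10 to 6.36, on the 6 arrays where Myl7 is 6.07 or more, while the cardiomyocyte mean stays between 12.84 and 13.15.

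Among the 15 other atrial genes that passed the filter, 2 shared at least 5 of Myl7's arrays, Dkk3 and Cacna2d2, a calcium channel subunit. Over all genes that passed, the share was 3.34%. The rest of this list shared 0 to 4 of the arrays. Kcnj3 shared 0 and Gja5 1, and each had 4 of its 6 lowest arrays there. Cacna2d2 was at 5.41 in control sham replicate 3, 5.48 in control TAC replicate 2, 5.77 in cKO sham replicate 2 and 5.93 in cKO TAC replicate 2, and between 4.83 and 5.17 on the other 12 arrays. Nppa, which encodes atrial natriuretic peptide and is also made by loaded ventricles, shared 3 of 6. It was at 11.17, 11.77, 11.99 and 12.11 in control sham, at 9.86, 12.24, 11.50 and 12.92 in control TAC, at 11.79, 11.89, 12.26 and 11.63 in cKO sham and at 12.33, 13.27, 12.41 and 11.48 in cKO TAC. Its lowest array, control TAC replicate 1, was one of the 6 where the light chains were high, and its highest, cKO TAC replicate 2, was another.

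None of the 12 ventricular genes shared 5 of the 6 arrays, where 3.34% of all genes that passed the filter did. In no list did a gene have 5 of its 6 lowest arrays there, where 1.66% of all did. At these shares, lists of this length would hold few or none. The mean of the ventricular genes was lowest on cKO TAC replicate 2, at 8.17, and next on control sham replicate 3, at 8.28. It lay between 8.31 and 8.58 on the rest. On cKO sham replicate 2, where Myl7 read 8.46, it was 8.42, above the 8.31 of cKO sham replicate 1. Myl3, the ventricular partner of Myl4, ranged from 13.18 to 13.42. Of the 11 other myosin light chain and binding protein genes that passed, 1 shared 5 arrays, Mybpc2. For the calcium pump and its regulators that was 1 of 8, Atp2a3, for signalling by BMP9 and BMP10 1 of 15, Id3, and for chamber transcription factors 0 of 14.

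The first comparison asked what TAC did in control hearts. The limma fit called 0 of 5 atrial genes, on a background of 0% of the 21333 probe sets tested. Myl4 differed by a log2 fold change of 0.34 ± 1.24 (SE, 95% interval -2.30 to 2.97, adjusted p = 0.964) and Myl7 by -0.15 ± 1.13 (SE, interval -2.54 to 2.24, adjusted p = 0.983). Sln was at 0.01 ± 0.24, Mybphl at 0.14 ± 0.46 and Nr2f2 at -0.02 ± 0.12 (SE). Without single arrays Myl4 ranged from -0.30 to 1.38 and Myl7 from -0.71 to 0.82, and each of the 5 genes turned sign at least once. The intervals of the light chains reach past 2 log2 units on both sides, so 4 arrays a group leave a wide span of differences undecided.

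In hearts labelled cKO, TAC against sham also gave 0 of 5 calls, on a background of 0%. The fitted differences were 0.57 ± 1.24 for Myl4, 0.19 ± 1.13 for Myl7, 0.13 ± 0.24 for Sln and 0.50 ± 0.46 for Mybphl (SE). Nr2f2 stood at 0.22 ± 0.12 (SE, interval -0.04 to 0.47, limma adjusted p = 0.758). Without cKO TAC replicate 2 the Myl4 value was -0.50 and that of Myl7 -0.76, and without cKO sham replicate 2 they were 1.48 and 1.08. Sln and Mybphl also turned sign without cKO TAC replicate 2, to -0.08 and -0.11.

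After sham surgery, cKO against control gave 0 of 5 calls, where 0.0234% of all probe sets were called. Nr2f2 had the smallest p, with 5.86 to 6.31 in hearts labelled cKO and 6.24 to 6.51 in control hearts, ranges that overlap. Its log2 fold change was -0.31 ± 0.12 (SE, interval -0.56 to -0.05), with a limma p of 0.0223 before and 0.397 after adjustment. At an unadjusted p under 0.05, 10.7% of all probe sets passed. Myl4 was at 0.32 ± 1.24, Myl7 at 0.07 ± 1.13, Sln at 0.03 ± 0.24 and Mybphl at 0.20 ± 0.46 (SE). Each of these 4 turned sign without cKO sham replicate 2, to -0.59, -0.82, -0.17 and -0.10, and the first 3 also with array weights, to -0.43, -0.61 and -0.10.

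After TAC, cKO against control gave 0 of 5 calls, on a background of 0.00469%. The fitted values were 0.55 ± 1.24 for Myl4, 0.42 ± 1.13 for Myl7, 0.15 ± 0.24 for Sln, 0.55 ± 0.46 for Mybphl and -0.07 ± 0.12 for Nr2f2 (SE). Leaving out cKO TAC replicate 2, the array highest in Myl4, Myl7, Sln and Mybphl, gave -0.51 for Myl4, -0.53 for Myl7 and -0.05 for both Sln and Mybphl.

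Averaged over genotype, TAC against sham gave 0 of 5 calls, on a background of 0%. Myl4 was at 0.45 ± 0.88, Myl7 at 0.02 ± 0.80, Sln at 0.07 ± 0.17, Mybphl at 0.32 ± 0.33 and Nr2f2 at 0.10 ± 0.09 (SE), with limma adjusted p of 0.667 or more. The median of these 5 was 0.10, against 0.01 over all probe sets. The sign of Myl7 turned without 9 of the 16 arrays, left out 1 at a time, with a range of -0.45 to 0.51. That of Myl4 turned without 1 of them, cKO TAC replicate 2, to -0.08, as did that of Sln, to -0.04. With array weights, Myl4 was at -0.22, Myl7 at -0.59 and Sln at -0.06.

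Averaged over surgery, cKO against control gave 0 of 5 calls, on a background of 0.0188%. Nr2f2 was at -0.19 ± 0.09 (SE, interval -0.37 to -0.01), with a limma p of 0.0418 before and 0.314 after adjustment, and 14.9% of all probe sets passed 0.05 before adjustment. Myl4 was at 0.43 ± 0.88, Myl7 at 0.24 ± 0.80, Sln at 0.09 ± 0.17 and Mybphl at 0.38 ± 0.33 (SE). The signs of Myl4, Myl7 and Sln turned without cKO sham replicate 2 (-0.02, -0.20 and -0.01), without cKO TAC replicate 2 (-0.10, -0.23 and -0.01) and with array weights, which gave -0.19, -0.32 and -0.02. The comparisons between genotypes and between surgeries share arrays and are not independent of each other.

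The interaction, which asks whether TAC acted differently in the 2 genotypes, gave 0 of 5 calls on a background of 0%. It was 0.23 ± 1.75 for Myl4, 0.34 ± 1.59 for Myl7, 0.12 ± 0.34 for Sln, 0.35 ± 0.65 for Mybphl and 0.24 ± 0.17 for Nr2f2 (SE), each with a limma adjusted p of 1. Without single arrays Myl4 ranged from -0.83 to 1.14 and Myl7 from -0.63 to 1.23. At an unadjusted p under 0.05, 1 atrial gene passed in the cKO comparison after sham and in that averaged over surgery, Nr2f2 in both, and 0 passed in the other 5 comparisons.

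Bmp10 entered a fit only without the filter, over all 35556 probe sets. Its differences there ran from -0.10 ± 0.08 for TAC in control hearts to 0.07 ± 0.11 for the interaction (SE), and its lowest limma adjusted p over the 7 comparisons was 0.701.

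**Figure D5:**
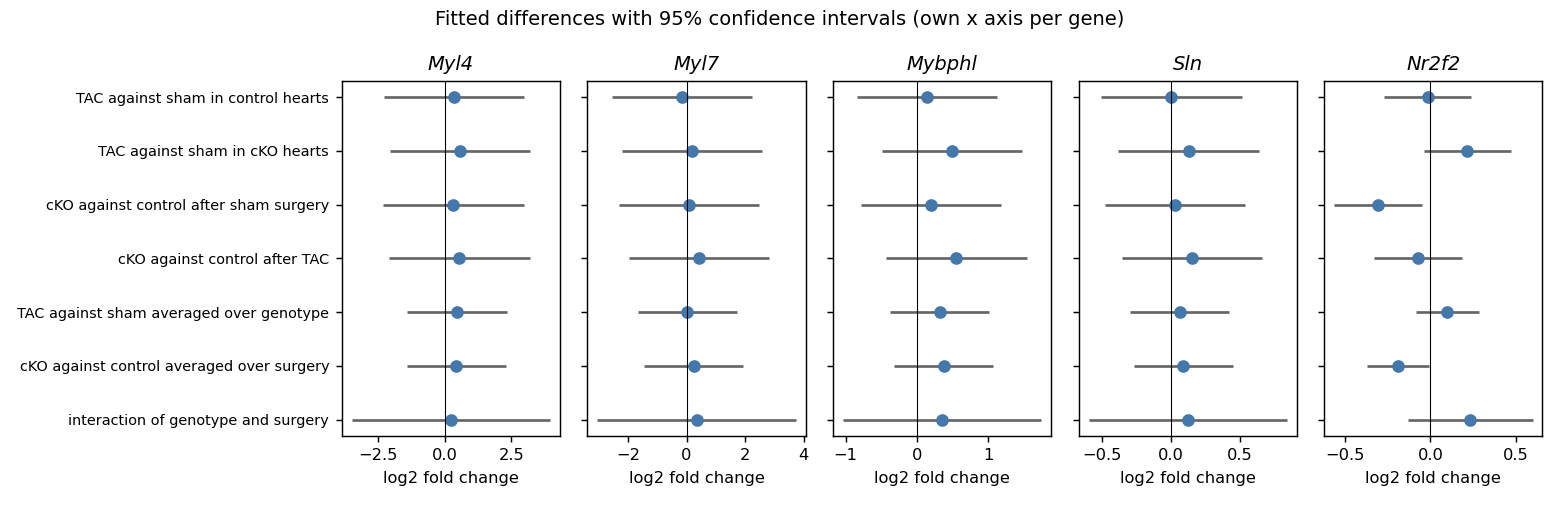
Fitted log2 fold changes (points, horizontal axes with a scale for each gene) and their 95% confidence intervals (lines) in the 7 comparisons (vertical axis) for the 5 atrial genes that passed the filter. All intervals include 0 except those of Nr2f2 for cKO against control after sham and averaged over surgery, at -0.31 and -0.19, neither of which passed after adjustment.

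The genes that work beside the atrial ones were read in the averaged comparisons. For TAC, 0 were called in any of the 6 lists. Other atrial genes were positive in 6 and negative in 9 of 15, with a median of -0.02, and ventricular genes in 6 and 6 of 12, with a median of -0.003, where 53.9% of all probe sets were positive. Among atrial genes the smallest p values were those of Gja5, a gap junction protein (-0.15 ± 0.09), and the potassium channels Kcna5 (-0.35 ± 0.21) and Kcnj3 (-0.23 ± 0.16, all SE). Among ventricular genes they were those of Kcnd2, a potassium channel (-0.42 ± 0.17), and of the transcription factors Hand1 (0.14 ± 0.06) and Irx3 (0.16 ± 0.08, all SE).

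In the same comparison, myosin light chain and binding protein genes were positive in 7 and negative in 4 of 11, with a median of 0.05. Mylk3, the kinase that phosphorylates Myl2, was at -0.34 ± 0.08 (SE, limma adjusted p = 0.232), Myl12b at 0.23 ± 0.09 and Myl9 at 0.28 ± 0.15. The calcium pump and its regulators were positive in 2 and negative in 6 of 8, with Pln, phospholamban, at -0.08 ± 0.03 and Hrc, a calcium-binding protein of the reticulum, at -0.21 ± 0.10 (SE). Genes of BMP9 and BMP10 signalling were positive in 9 and negative in 6 of 15, with the inhibitor Smad6 at 0.23 ± 0.06 (SE, limma adjusted p = 0.233) and the target Id2 at 0.33 ± 0.14. Chamber transcription factors were positive in 6 and negative in 8 of 14, with Nkx2-5 at 0.18 ± 0.05 (SE, limma adjusted p = 0.233) and Mef2a at -0.14 ± 0.06.

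Between genotypes, 1 gene of these lists was called, Myl2, the ventricular partner of Myl7, which is in the ventricular and the myosin list. It was lower in hearts labelled cKO, with log2 values of 12.55 to 12.89 against 13.20 to 13.27 in control hearts. Averaged over surgery its log2 fold change was -0.42 ± 0.04 (SE, limma adjusted p = 0.000232), where 0.0188% of all probe sets were called. Its lowest array was cKO TAC replicate 2, and leaving out any array gave between -0.44 and -0.39.

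The rest of these lists did not pass between genotypes. Ventricular genes were positive in 8 and negative in 4 of 12, other atrial genes in 10 and 5 of 15, and chamber factors in 11 and 3 of 14, with medians of 0.05 each, where 48.8% of all probe sets were positive. Pam, an atrial enzyme that matures peptide hormones, was at 0.29 ± 0.12 (SE), with 10.25 to 10.95 in control and 10.75 to 11.50 in cKO hearts. Mybpc3, the main cardiac myosin binding protein, was at 0.26 ± 0.07 (SE, limma adjusted p = 0.162) and Tbx18, a factor of the sinus node and epicardium, at 0.31 ± 0.07 (SE, limma adjusted p = 0.106). Genes of BMP signalling were positive in 6 and negative in 9 of 15, with the coreceptor Eng at -0.29 ± 0.08 (SE, limma adjusted p = 0.156) and the receptor Acvrl1 at -0.19 ± 0.08. The calcium pump and its regulators were positive in 4 and negative in 4 of 8.

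The genes most like the atrial set were sought by the Spearman correlation of each gene with the mean of the 6 standardised atrial genes over the 16 arrays, as a description. The 10 highest were Npnt (0.88), Cilk1 (0.87), Fmod (0.87), Kctd16 (0.86), Ccl19 (0.84), Ahsg (0.81), Gm5129 (0.81), Crebl2 (0.81), Kif1a (0.80) and Ltbp2 (0.80). Npnt encodes nephronectin, a ligand of integrins in basement membranes, and was at 4.93 to 6.09, while Ltbp2, a protein of elastic microfibrils, was at 5.58 to 7.89. The 5 lowest were Mtif2 (-0.84), Mrpl32 (-0.84), Ptges2 (-0.83), Tefm (-0.82) and Tmem135 (-0.81), of which Mtif2, Mrpl32 and Tefm serve protein synthesis and transcription in mitochondria.

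The list of 10 depended on how likeness was measured, and not only on Bmp10, which weighs as much as Myl4 once standardised. With Pearson correlation, 2 of the 10 remained, and with values minus their group means 2 did, with Bmp10 kept in both. Without Bmp10, an alternative added after the values were seen, 2 of the 10 remained, and with Myl7 alone 1 did, Fmod. The 10 genes most like Myl7 alone were Fmod (0.97), Inhba (0.91), Pdlim3 (0.87), Cdh11 (0.87), Anp32b (0.84), Cnpy3 (0.82), Ahnak2 (0.82), Col12a1 (0.81), Chad (0.81) and Rhbdd1 (0.80). Among these, Inhba encodes a subunit of activin A, Pdlim3 a protein of the muscle Z disc, Cdh11 a cadherin of mesenchymal cells and Col12a1 a collagen chain.

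The nearest 5 genes of each atrial gene held few other atrial genes. Myl7 had Sln and Myl4 among its nearest 5, and Myl4 and Sln each had Myl7. The nearest of Mybphl was Dkk3 and that of Nr2f2 was Cilk1, and neither had an atrial gene of the 6 among its nearest 5, nor did Bmp10.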

How the data were processed

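RNA of 16 mouse hearts was hybridised to 16 Affymetrix arrays. The deposited values are log2 signals, 1 for each of 35556 probe sets, that the authors gave with 2 decimals, between 2.34 and 14.35. That the scale is log2 was read from the values. The submitters' processing notes name MAS5 with no version, and the scaling between arrays was not given in the sources used here. The upper quartiles of the arrays lie between 6.82 and 6.93, and scaling that brings them so close takes out any overall shift of an array. The platform annotation gave 1 symbol to 21789 probe sets, several to 1621 and none to 12146, and 21698 matched RefSeq by Entrez ID.

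Probe sets were kept where their mean exceeded the 40th percentile (4.37), which left 21333. A limma 3.58.1 model in R 4.3.3 gave each of the 4 groups its own mean over the 16 arrays, with 12 residual degrees of freedom and empirical Bayes with a mean-variance trend. Tests were two-sided, and a call is a Benjamini-Hochberg adjusted p under 0.05 over all kept probe sets. A fold change is a difference of log2 group means. Each group has 4 arrays, and that number limits the precision.

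The atrial genes and all gene lists were chosen with earlier results of these data known. The text names the 6 atrial genes, Nppa, Myl2 and Myl3, called list members or else up to 3 of smallest p, and the 10 most and 5 least like genes. Genes named for sharing Myl7's highest arrays were chosen after their values were seen, and the 6 arrays are no group of the study. Other settings changed the normalization (quantile, median centring), the filter (none, or the 60th percentile), the trend, the arrays fitted (only the groups compared, or without each array), the weights of arrays, the replicate number as a block, and the probe sets (their mean for each gene).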

Additional observations from a re-analysis of the deposited data

Results flagged for a closer look

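Among 28 genes, the 6 atrial ones and those set beside them, 17 of 112 groups of 4 arrays held an array whose gap to the nearest of the others was over Dixon's 95% limit as a share of the group's range. Chance alone would flag about 5% of groups of unselected genes. Most of these genes were chosen for their height on some arrays or their likeness to those that were, and they share arrays, so the 17 are a description and no test.

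Control sham replicate 3 stood above the other 3 arrays of its group in Myl4 (11.18, against 6.76 to 7.31), Myl7 (8.62, against 4.30 to 5.02), Mybphl (5.04, against 3.98 to 4.16), Comp (6.67, against 4.81 to 4.93) and Chad (7.14, against 4.89 to 5.20).

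The array of cKO sham replicate 2 stood above its group in Myl4 (11.09, against 7.23 to 7.59), Myl7 (8.46, against 4.63 to 5.20), Mybphl (5.42, against 4.13 to 4.33), Comp (6.59), Fmod (7.41), Chad (7.39), Prg4 (8.52) and Ltbp2 (6.20, against 5.61 to 5.71). Bmp10 was instead lowest there, at 3.57 against 3.75 to 3.76 on the other 3.

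In cKO TAC replicate 2, Mybphl was at 6.83, against 4.22 to 4.54 on the other arrays of the group. Kctd16 was lowest in cKO TAC replicate 4, at 4.36 against 4.74 to 4.76, and Crebl2 was lowest in cKO sham replicate 1, at 6.72 against 7.09 to 7.14.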

How the results depend on the processing

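Under each of 25 other settings 0 of the atrial genes were called in any comparison, and their lowest limma adjusted p was 0.22. The filter at the 60th percentile left 3 of them, and only the groups compared cannot be applied to the averaged comparisons or the interaction. Over all probe sets, calls for cKO against control were 5 after sham and 4 averaged, against 27 and 81 without control sham replicate 4, 0 to 5 and 1 to 12 without each of the other arrays, 0 to 6 and 1 to 9 under the other settings, and 0 and 2 with the replicate block. After group means were taken out, same-numbered arrays correlated at -0.20 to 0.19 (median -0.03) and differently numbered ones at -0.33 to 0.25 (median 0.02). Of 16 arrays, 3 correlated best with their own number. These values cannot tell whether arrays of the same number share a batch or a pairing. The replicate block left 0 atrial genes called.

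Of 35 fold changes of atrial genes, 14 turned sign with array weights, whose cause was not tested: TAC in control hearts, Myl4 -0.46, Sln -0.14 and Mybphl -0.01. TAC in cKO hearts, Myl7, was -0.30. For cKO after sham, Myl4 was -0.43, Myl7 -0.61 and Sln -0.10, and after TAC Myl7 was -0.02. Averaged TAC gave Myl4 -0.22, Myl7 -0.59 and Sln -0.06, and averaged cKO gave Myl4 -0.19, Myl7 -0.32 and Sln -0.02. With median centring 1 turned, Nr2f2 for TAC in control hearts, at 0.01.

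Leaving out each array turned the sign of 28 of the 35 at least once. The ranges for TAC in control hearts were -0.30 to 1.38 for Myl4, -0.71 to 0.82 for Myl7, -0.11 to 0.19 for Sln, -0.02 to 0.38 for Mybphl and -0.07 to 0.04 for Nr2f2. TAC in cKO hearts gave -0.50 to 1.48 for Myl4, -0.76 to 1.08 for Myl7, -0.08 to 0.32 for Sln and -0.11 to 0.79 for Mybphl. For cKO after sham they were -0.59 to 1.37 for Myl4, -0.82 to 1.04 for Myl7, -0.17 to 0.21 for Sln and -0.10 to 0.44 for Mybphl. After TAC they were -0.51 to 1.22 for Myl4, -0.53 to 0.98 for Myl7, -0.05 to 0.27 for Sln, -0.05 to 0.82 for Mybphl and -0.13 to 0.02 for Nr2f2. Averaged TAC gave -0.08 to 0.97 for Myl4, -0.45 to 0.51 for Myl7 and -0.04 to 0.17 for Sln, and averaged cKO -0.10 to 0.96, -0.23 to 0.73 and -0.01 to 0.18. The interaction gave -0.83 to 1.14 for Myl4, -0.63 to 1.23 for Myl7, -0.08 to 0.32 for Sln and -0.25 to 0.65 for Mybphl. In 27 of the 28 an end of the range came from leaving out control sham replicate 3, cKO sham replicate 2 or cKO TAC replicate 2. Each is the highest array of its group in Myl4, Myl7, Sln, Mybphl and Nr2f2. The count therefore follows largely from the heights already given and is no separate result.

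Of the 10 genes most like the atrial set, 2 were among the 10 with Pearson correlation, 2 with values minus their group means, and 4 to 10 without each array (4 without control TAC replicate 4).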

Other observations

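Macrophage markers had list means of 6.80 to 7.52 in control sham, 7.32 to 8.04 in control TAC, 6.93 to 7.16 in cKO sham and 7.21 to 8.07 in cKO TAC hearts. For TAC against sham averaged over genotype, all 6 had a positive difference, with a median of 0.48, and 0 of 6 were called by limma (lowest adjusted p 0.233). Over all probe sets, 53.9% were positive and 0% were called. Endothelial markers were negative in 7 of 7 for cKO against control averaged over surgery, with a median of -0.21 and 0 called (lowest limma adjusted p 0.232). In that comparison 48.8% of all probe sets were positive and 0.0188% were called.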
